A study of Mus musculus with 3 samples.

Results

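The genes described here build, bind or modify the pericellular matrix: the hyaluronan synthases Has1 and Has2, the hyaluronan receptor Cd44, the matricellular proteins Tnc (tenascin-C), Spp1 (osteopontin) and Sparc, the adhesive glycoprotein Fn1 (fibronectin) and the elastin-associated glycoprotein Emilin2. They were selected on gene symbol from the authors' deposited table, and all 8 symbols were present, as 23 of its 17910 RefSeq transcripts and 8 of its 11886 genes. The symbols themselves were chosen by reports of these same 3 fold changes, several of which were known to be high, so the counts below describe these genes and support nothing further.

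The RNA came from cells of the mT3-2D-GFP line, which derives from a mouse KPC tumour and is marked with green fluorescent protein (GFP). KPC is a genetically engineered mouse model of pancreatic cancer. Cells of 3 kinds were compared, all of them this same line, whose original strain is C57BL/6. GFP-positive cells were sorted from tumours of B6.CB17-Prkdcscid/SzJ hosts, called SCID below. These mice carry a mutation of Prkdc, lack mature lymphocytes of the T and B lineages and keep macrophages and other innate cells. GFP-positive cells were likewise sorted from tumours grown in wild-type (WT) C57BL/6 mice. The cultured line itself, kept in DMEM with 10% serum, was the third. RNA from 5 SCID tumours was combined into 1 library, RNA from 6 WT tumours into another, and the line gave 1 more, so each group is 1 library, nothing was tested and no spread between animals or cultures is known. The labels give neither the age and sex of the mice nor the site of the tumours.

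The table holds log2 fold changes and neither counts nor levels, so library depths are unknown here; the labels state only a mean, 40M reads. Each value below is a difference on the deposited log2 scale, and a gene's value is the mean over its transcripts. Folds and ranks below hold on that scale only, and how it relates to read ratios is unknown. The threshold for calling a gene higher or lower was 2-fold, a log2 value of 1. The comparisons were SCID tumour cells minus the line, WT tumour cells minus the line, and SCID minus WT tumour cells. The third equalled the first minus the second in all 17910 transcripts, and the first and the second share the library of the line, so they are not separate evidence. The sorted cells passed through tumour dissociation and sorting, which the labels do not mention for the line.

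Hyaluronan is a long unbranched sugar polymer that synthases in the plasma membrane extrude from the cell, and it is abundant in the stroma of pancreatic cancer. Cd44 tethers it at the cell surface. Fibronectin forms fibrils that cells grip through integrins, while matricellular proteins such as tenascin-C, osteopontin and Sparc are secreted into the matrix and alter adhesion and signalling more than they bear load. In pancreatic tumours both cancer cells and stromal cells can make them.

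The 7 fibronectin transcripts differ by alternative coding exons. The sequences of EDB and EDA are shown because the Fn1 values below are grouped by them. The EDB and EDA exons each encode 1 extra fibronectin type III repeat and are used in embryonic tissue, wounds and tumours more than in most adult tissue. The EDB exon lies in Fn1 at chr1:71613763-71614035 and the EDA exon at chr1:71603660-71603929, both on the reverse strand of GRCm38. They have 273 and 270 bases, which encode 91 and 90 residues. Of the 7 transcripts 1 held EDB and 4 held EDA, according to the GENCODE vM21 models matched to them. Both exons were read from the transcript sequences of GENCODE vM21 and are given 5′ to 3′ in lower case.
Fn1 EDB exon: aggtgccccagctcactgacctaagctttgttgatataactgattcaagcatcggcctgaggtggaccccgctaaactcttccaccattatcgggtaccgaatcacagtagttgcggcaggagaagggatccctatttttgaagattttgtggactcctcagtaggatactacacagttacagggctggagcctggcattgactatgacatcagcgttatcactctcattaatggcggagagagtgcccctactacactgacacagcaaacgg
Fn1 EDA exon: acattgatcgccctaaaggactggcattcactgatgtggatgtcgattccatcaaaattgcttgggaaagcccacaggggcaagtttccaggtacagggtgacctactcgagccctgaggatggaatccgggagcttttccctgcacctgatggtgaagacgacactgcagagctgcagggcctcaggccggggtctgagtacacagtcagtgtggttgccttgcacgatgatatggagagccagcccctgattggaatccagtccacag

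The promoters printed next are those of Emilin2, the gene of the 8 with the widest difference between hosts, and of Tnc, which hardly differed between them. RefSeq sequences of GRCm38.p6 were at hand for Has1, Cd44, Tnc, Spp1, Sparc and Emilin2, 6 of the 8 genes. Each window is the 250 bases before the transcript start. The Emilin2 window, at chr17:71311012-71311261 on the reverse strand, ends at a RefSeq start 46 bases upstream of the start in the deposited table. The RefSeq span of Emilin2 reaches 71311556, so this window lies inside it, downstream of the outermost start. The Has1 window likewise lies inside its RefSeq span, which reaches 17855589. The Tnc window lies at chr4:64047016-64047265, also on the reverse strand. Capitals mark matches, on either strand, to 6 motifs. The AP-1 motif was searched as TGANTCA and the TATA box as TATAAA. The core of the hypoxia response element was searched as ACGTG and the STAT motif as TTCNNNGAA. The TEAD motif was searched as GGAATG, and the box bound by Sp1-type factors, the GC box, as GGGCGG.
Emilin2: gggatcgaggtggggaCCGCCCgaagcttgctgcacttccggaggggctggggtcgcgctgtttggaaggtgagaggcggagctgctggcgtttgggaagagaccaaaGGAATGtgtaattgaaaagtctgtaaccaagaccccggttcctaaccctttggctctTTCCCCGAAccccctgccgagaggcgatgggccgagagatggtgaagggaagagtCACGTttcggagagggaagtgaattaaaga
Tnc: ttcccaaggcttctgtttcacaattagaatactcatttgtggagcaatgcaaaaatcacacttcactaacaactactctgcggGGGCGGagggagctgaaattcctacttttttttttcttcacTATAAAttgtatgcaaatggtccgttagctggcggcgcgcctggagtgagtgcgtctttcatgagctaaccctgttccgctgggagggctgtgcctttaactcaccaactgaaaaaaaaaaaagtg

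The Emilin2 window held the STAT letters as TTCCCCGAA 85 bases before the start, the TEAD letters at 142, the hypoxia core at 30 and a GC box at 234. The Tnc window held TATAAA 126 bases before the start and a GC box at 167. Cd44 held the hypoxia core at 29 bases and Spp1 TATAAA at 211, while the Has1 and Sparc windows held none of the 6. None of the 6 windows held TGANTCA. Among 32851 RefSeq promoter windows of the same length, the share with a match was 6.75% for AP-1, 12.4% for the TATA box, 16.6% for the hypoxia core, 7.02% for STAT, 12.6% for TEAD and 32.7% for the GC box. No match overlapped another, and a match of letters shows no binding.

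Tumour cells from both hosts had more RNA of these matrix genes than the cultured line. In SCID tumour cells 7 of the 8 genes were higher than in the line by 2-fold and 0 were lower, with a median of 1.60, and Cd44 was the gene that stayed within 2-fold. Over all genes 3.65% were higher by 2-fold, 2.62% were lower and the median was -0.02. In WT tumour cells the same count, 7 of 8, was higher than in the line, with a median of 1.69, where 4.12% of all genes were higher, 2.03% were lower and the median was -0.01. Between the hosts, 0 of the 8 genes were higher in SCID than in WT tumour cells by 2-fold, against 0.0168% of all genes, and 1 was lower, Emilin2, against 0.303% of all genes. These shares are printed for scale only, because the genes were chosen in view of these same comparisons.

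Most measured markers of host cells also stood above the line, and their part in these values was not tested. In bulk RNA, more cells of another type and more RNA per cell cannot be told apart. Against the line, 4 of 19 listed fibroblast markers had a value and ran from 0.43 to 2.61 in SCID tumour cells and from 0.71 to 1.90 in WT tumour cells. Has1 is itself one of the 4, and Col1a1 (type I collagen) was at 2.61 in SCID and 1.90 in WT tumour cells. Markers such as Pdgfra, Dcn and Lum had no value in the table. The 4 measured of 16 endothelial markers ran from 0.80 to 1.63 in SCID and from 0.93 to 1.66 in WT tumour cells. The 6 measured of 24 macrophage markers ran from -0.06 to 1.02 in SCID and from 0.77 to 2.77 in WT tumour cells. Of these, 1 was past 2-fold in SCID and 5 in WT tumour cells, with medians of 0.50 in SCID and 1.65 in WT. Of 12 epithelial markers, which check the identity of the line, 11 had a value, and they ran from -1.18 to 1.25 with a median of -0.31 in SCID tumour cells and from -0.99 to 1.59 with a median of -0.19 in WT tumour cells. Of the 11, 8 were below 0 in SCID and 7 in WT tumour cells, among them Krt19 at -1.01 in SCID and -0.95 in WT. Epcam, at 1.25 in SCID and 1.59 in WT tumour cells, was the highest of them.

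**Figure D1:**
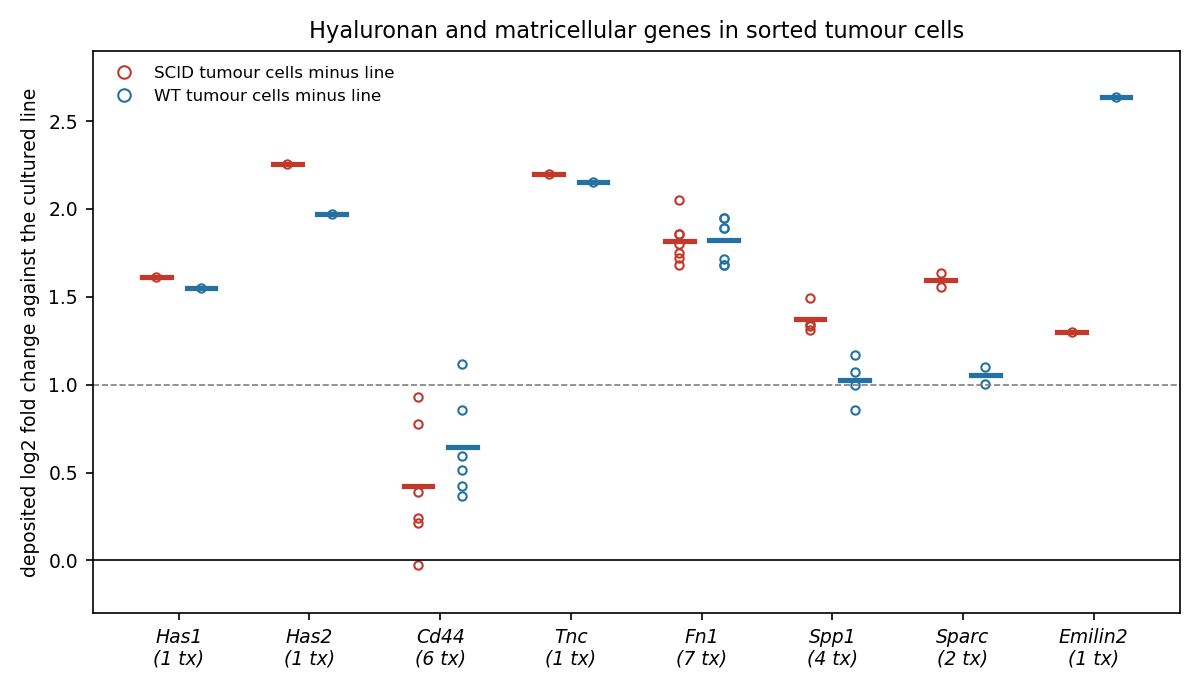
Deposited log2 fold changes against the cultured line for each of the 8 genes, SCID tumour cells in red and WT tumour cells in blue; open circles are transcripts (tx), bars the mean over a gene's transcripts and the dashed line 2-fold. Emilin2 stands at 1.30 in SCID and 2.64 in WT tumour cells, and Tnc at 2.20 in SCID and 2.15 in WT. The mean of Cd44 lies below the dashed line in both, while its transcript NM_009851 lies above it in WT, at 1.12.

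Has2, which makes the longest hyaluronan chains of the vertebrate synthases and is needed for heart development in the mouse embryo, was the highest of the 8 genes in SCID tumour cells. Its single transcript (NM_008216, chr15:56665627-56694546, reverse strand) was at 2.25 in SCID tumour cells, a fold of 4.77 over the line, and at 1.97 in WT tumour cells, a fold of 3.92. Only 3 of 11886 genes stood above it in the SCID comparison, where it ranked 4, and it ranked 31 in the WT comparison. SCID minus WT was 0.28, the 259th highest of all genes and well under 2-fold.

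Has1, a synthase usually found at low level outside inflamed or mesenchymal tissue, was at 1.61 in SCID and 1.55 in WT tumour cells (NM_008215, chr17:17843326-17855188, reverse strand). Those are folds over the line of 3.05 in SCID and 2.93 in WT tumour cells, and SCID minus WT was 0.06. The remaining synthase, Has3, was also past 2-fold, at 1.12 in SCID and 1.07 in WT tumour cells, or 0.94 in SCID and 0.96 in WT, just inside 2-fold, once a trend in GC content and transcript length was removed. All 3 synthases were thus above the line in both kinds of tumour cells. By gene mean, the enzymes that make their sugar substrates were within 2-fold of the line on either side. With the transcript farthest from 0 in place of the mean, 4 genes of the synthesis list passed 2-fold in SCID tumour cells and 3 in WT. Uap1l1, another gene of that list, was at -0.65 in SCID and -0.43 in WT tumour cells. Ugdh, which makes UDP-glucuronic acid, was at -0.29 in SCID and -0.34 in WT tumour cells. In the hexosamine pathway, Gfpt1, its first enzyme, was at 0.19 in SCID and 0.06 in WT tumour cells, Pgm3, a later one, at 0.66 in SCID and 0.47 in WT, and Uap1, the last, at -0.41 in SCID and -0.33 in WT. Of 10 measured of 11 listed synthesis genes, 3 were higher by 2-fold in each host and 0 were lower, and those 3 were the synthases; the list median was 0.18 in SCID and 0.00 in WT tumour cells.

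Genes for breaking hyaluronan down differed little, with 2 exceptions. Of 8 measured of 14 listed, 2 were higher by 2-fold in each host and 0 were lower, with medians of 0.07 in SCID and 0.13 in WT tumour cells. Hyal1, a lysosomal hyaluronidase, was at 1.03 in SCID and 1.15 in WT tumour cells. Hexa, a lysosomal hexosaminidase subunit, was at 1.00 in SCID and 1.79 in WT tumour cells. Hyal2, the hyaluronidase anchored at the cell surface, was at 0.02 in SCID and 0.04 in WT, and Cemip, a protein needed for hyaluronan degradation by fibroblasts, at -0.08 in SCID and -0.01 in WT.

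Cd44, the main cell surface receptor for hyaluronan, was the closest to the line of the 8 genes. Its mean was 0.42 in SCID and 0.65 in WT tumour cells, folds over the line of 1.34 in SCID and 1.56 in WT, and SCID minus WT was -0.22. The mean hides a wide spread among its 6 transcripts (all chr2:102811142-102901665, reverse strand), which ran from -0.03 to 0.93 in SCID and from 0.37 to 1.12 in WT tumour cells. Only 1 of the 6 passed 2-fold, and only in WT tumour cells. Over all transcripts, 4.01% were higher by 2-fold in SCID tumour cells than in the line, and 4.32% in WT tumour cells.

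Cd44 is spliced through a block of 10 alternative coding exons that lengthen the stalk between the hyaluronan-binding domain and the membrane. The standard form without any of them, NM_001039151, was at 0.93 in SCID and 0.85 in WT tumour cells, and is expressed in most cells. The longest form, NM_009851, holds all 10 and was at 0.78 in SCID and 1.12 in WT tumour cells. The 4 forms with 2 to 7 of the exons lay lower, from -0.03 to 0.39 in SCID and from 0.37 to 0.59 in WT tumour cells. NM_001039150, with the last 5 exons, was lowest in both, at -0.03 in SCID and 0.37 in WT tumour cells. Both ends of the series thus stood above its middle in each host, a grouping of the transcripts made after the values were seen. Between hosts the standard form was the only one higher in SCID than in WT tumour cells, at 0.08, whereas the 5 forms with alternative exons ran from -0.40 to -0.12. The 6 forms share their coding exons outside this block, but the lengths of their matched models differ widely. NM_009851 has 5614 bases, whereas NM_001177785, NM_001177786 and NM_001177787, all among the middle forms, have 1981, 1533 and 1412. No source used here says how reads were divided among the forms, and transcripts are not replicates.

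**Figure D2:**
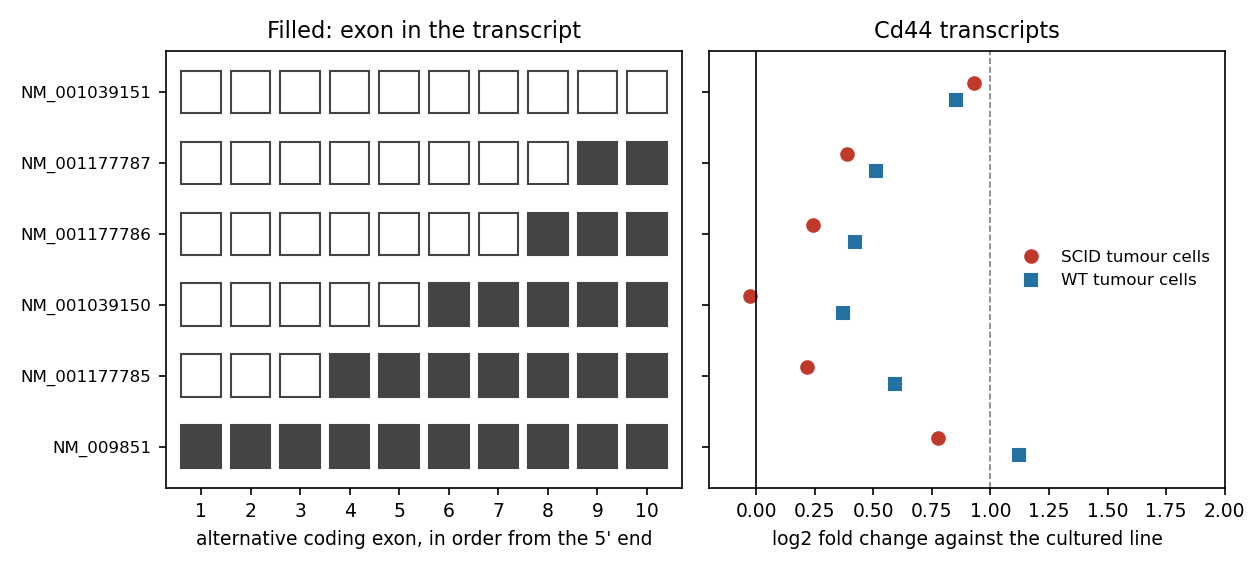
Left, the 10 alternative coding exons of Cd44 in order from the 5′ end, filled where a transcript holds them; right, the log2 fold change of each transcript against the cultured line, SCID tumour cells as red circles and WT tumour cells as blue squares, with the dashed line at 2-fold. The standard form, at 0.93 in SCID and 0.85 in WT, and the longest form, at 0.78 in SCID and 1.12 in WT, lie to the right of the 4 forms between them.

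The listed proteins that bind hyaluronan, Cd44 among them, went both ways. Of 11 measured of 26 listed, 2 were higher and 1 was lower by 2-fold in SCID tumour cells against the line, and 3 were higher and 1 lower in WT tumour cells, with a median of 0.24 in each. Vcan (versican), a large proteoglycan of the provisional matrix, was at 1.62 in SCID and 1.20 in WT tumour cells. Ambp, which encodes the bikunin chain of the inter-alpha-trypsin inhibitor, whose heavy chains become attached to hyaluronan, was at 1.43 in SCID and 1.35 in WT. Hmmr, a hyaluronan receptor that is also a spindle protein of dividing cells, was lower, at -1.45 in SCID and -1.31 in WT tumour cells. Tlr2, an innate immune receptor that can respond to hyaluronan fragments, was at 0.77 in SCID and 2.17 in WT tumour cells, and at -1.40 for SCID minus WT it was the 1 gene of the list past 2-fold between hosts.

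Tnc, a many-armed glycoprotein of wounds, embryonic mesenchyme and tumour stroma, stood near the top of both comparisons. Its single transcript (NM_011607, chr4:63959785-64047015, reverse strand) was at 2.20 in SCID tumour cells, a fold of 4.59, and at 2.15 in WT tumour cells, a fold of 4.45. Among 11886 genes it ranked 7 in the SCID and 14 in the WT comparison. The hosts differed by 0.05, less than for any other of the 8 genes except Fn1. Tnxb, a tenascin of connective tissue, was at 1.08 in SCID and 1.42 in WT tumour cells, or 0.60 in SCID and 0.87 in WT after removal of the GC and length trend, and Tnr, the neural tenascin, was at 0.16 in SCID and 0.12 in WT.

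Fn1 was higher by 2-fold in all 7 transcripts in both hosts (chr1:71585473-71653234, reverse strand). The mean was 1.82 in SCID and 1.82 in WT tumour cells, folds over the line of 3.52 in SCID and 3.54 in WT, and SCID minus WT was -0.004. After removal of the GC and length trend the means were 1.59 in SCID and 1.56 in WT tumour cells, and SCID minus WT was 0.04.

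Within Fn1 the transcripts with EDA stood above those without it against the line in both hosts. The 4 transcripts with EDA ran from 1.80 to 2.05 in SCID tumour cells, and the 3 without it from 1.68 to 1.75. In WT tumour cells those with EDA ran from 1.89 to 1.95 and those without from 1.68 to 1.71. How often the transcripts of other genes split this far by an exon was not counted. For SCID minus WT the values ran from -0.15 to 0.11 with EDA and from -0.03 to 0.07 without, so those ranges overlapped. The V region, spliced to add 120, 95 or 0 residues, allows a matched comparison, since each length occurs with and without EDA. The form with EDA minus the form without was 0.11, 0.13 and 0.12 in SCID tumour cells for 120, 95 and 0 residues, and 0.21, 0.21 and 0.23 in WT tumour cells. The mean of the 3 pairs was 0.12 in SCID and 0.22 in WT tumour cells, and 0.11 in SCID and 0.21 in WT after the GC and length trend was removed. The V region itself ordered the values less: with EDA and no EDB, the 120, 95 and 0 residue forms were at 1.86, 1.86 and 1.80 in SCID tumour cells and at 1.89, 1.89 and 1.95 in WT tumour cells.

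The transcript that also holds EDB, NM_010233, was the highest in SCID tumour cells at 2.05, which was 0.19 above the form with EDA and the same V region. In WT tumour cells that step was 0.05, and NM_010233 was not the highest there, at 1.946 against 1.948 in NM_001276412, which lacks EDB. All of these steps are smaller than the SD of transcripts around their gene's mean, pooled over the whole table, which was 0.33 for SCID and 0.31 for WT tumour cells minus the line. The 7 transcripts share most of their bases, so the 3 pairs do not count as 3 observations, and the pattern was noticed after the values were seen.

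**Figure D3:**
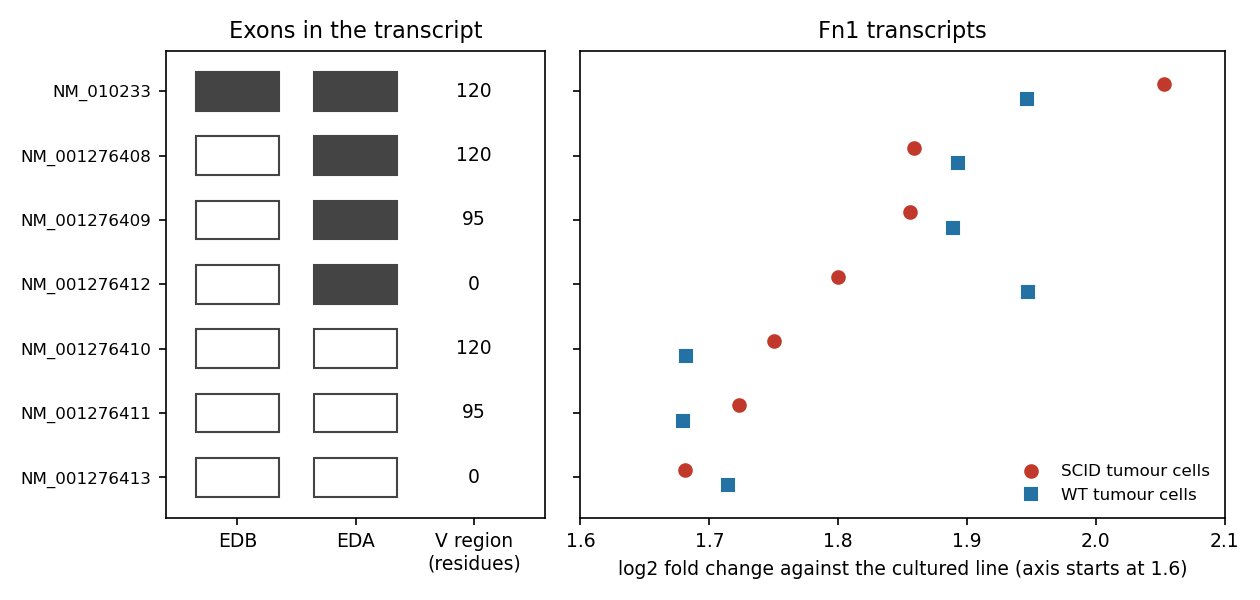
Left, the EDB and EDA exons of each Fn1 transcript (filled where present) and the residues added by its V region; right, its log2 fold change against the cultured line, SCID tumour cells as red circles and WT tumour cells as blue squares, on an axis that starts at 1.6. The 4 transcripts with EDA lie at 1.80 or above in SCID and 1.89 or above in WT tumour cells, and the 3 without lie at 1.75 or below.

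Sparc and Spp1 were past 2-fold in both hosts and higher in SCID than in WT tumour cells. Sparc, a collagen-binding glycoprotein of remodelling tissue that stromal fibroblasts of pancreatic cancer make in quantity, was at 1.60 in SCID and 1.05 in WT tumour cells, folds of 3.03 in SCID and 2.08 in WT. Its 2 transcripts, which differ by 3 coding bases (chr11:55394159-55420080, reverse strand), gave 1.56 and 1.64 in SCID tumour cells and 1.00 and 1.10 in WT tumour cells. SCID minus WT was 0.54, a fold of 1.46 and the 28th highest of 11886 genes, though short of 2-fold. Col1a1, the fibroblast marker with the widest difference between hosts, was at 0.71 for SCID minus WT, and the other 2 measured fibroblast markers apart from Has1 were below 0, Ly6c1 at -0.41 and S100a4 at -0.27. Smoc1, the other measured gene of the 8 listed for the SPARC family, was at 0.43 in SCID and 0.35 in WT tumour cells.

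Spp1, a secreted phosphoprotein that binds integrins and Cd44 and is made by macrophages as well as by carcinoma cells, was at 1.37 in SCID and 1.02 in WT tumour cells, folds of 2.59 in SCID and 2.03 in WT. All 4 of its transcripts passed 2-fold in SCID tumour cells, from 1.31 to 1.5, and 2 of the 4 did in WT tumour cells, from 0.86 to 1.17. Its call in WT tumour cells thus sits at the threshold. SCID minus WT was 0.35, the 131st highest of all genes, and 0.64 in NM_001204202, the transcript with the widest difference. All 6 measured macrophage markers were lower in SCID than in WT tumour cells, and the part of macrophage RNA in the Spp1 value was not tested.

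Emilin2 differed from the other 7 genes. It encodes a glycoprotein of the extracellular matrix that associates with elastic fibres and is known in human cells to engage death receptors. Its single transcript (NM_145158, chr17:71252176-71310965, reverse strand) was at 1.30 in SCID tumour cells, a fold of 2.46 over the line, and at 2.64 in WT tumour cells, a fold of 6.23. Only 2 of 11886 genes stood above it in the WT comparison, and it ranked 198 in the SCID comparison. SCID minus WT was -1.34, so WT tumour cells had 2.53-fold more on the deposited scale, and it was the 14th lowest of all genes. After removal of the GC and length trend it was -1.28.

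The macrophage markers moved with Emilin2. For SCID minus WT the 6 with a value were Apoe at -1.75, Cx3cr1 at -1.47, Cd68 at -1.26, Mertk at -0.89, Mrc1 at -0.82 and Cd14 at -0.80, so 6 of 6 were below 0 and 3 passed 2-fold. Other defining markers, Adgre1, Csf1r and Ptprc among them, had no value in the table. Emilin2 is expressed by macrophages as well as by other cells, and the part of macrophage RNA in its value was not tested. Epithelial markers were also all below 0, from -0.71 to -0.05 over 11 genes. Emilin2 was the 1 gene measured of the 5 listed EMILIN and multimerin genes.

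**Figure D4:**
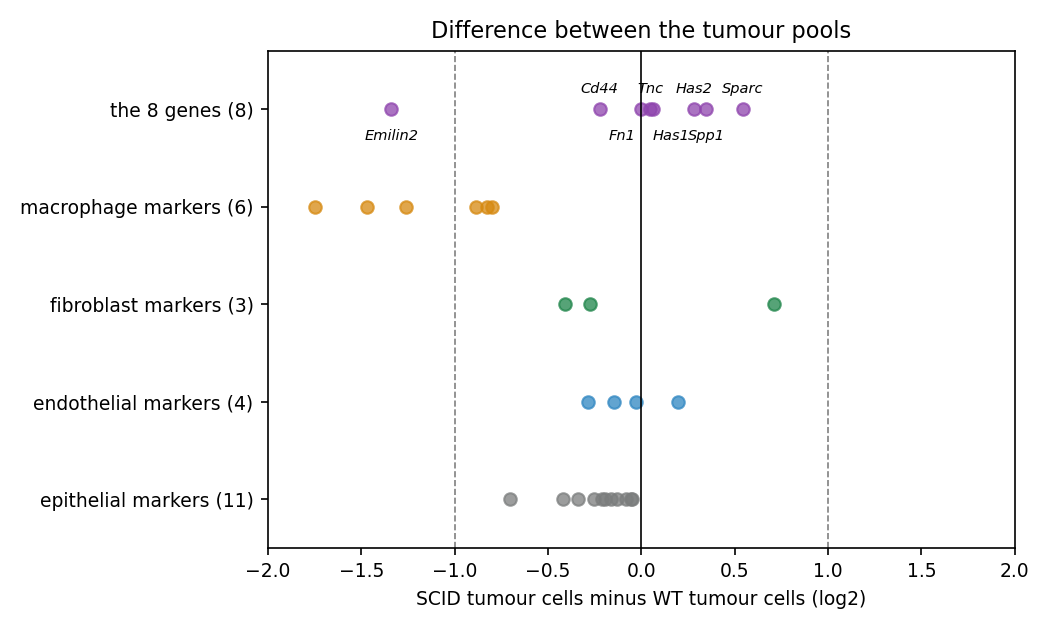
SCID tumour cells minus WT tumour cells on the log2 scale for the 8 genes and for measured markers of macrophages, fibroblasts (without Has1), endothelium and epithelium; each point is a gene and dashed lines mark 2-fold. Emilin2 at -1.34 lies among the 6 macrophage markers, which run from -1.75 to -0.80, while Sparc at 0.54 and Spp1 at 0.35 lie on the other side of 0.

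Among further matricellular genes, Thbs1, Ecm1 and Ctgf were higher than in the line by 2-fold in both hosts. Of 12 measured of 30 listed thrombospondin, CCN and other genes, 3 were higher by 2-fold in each host and 0 were lower, with medians of 0.32 in SCID and 0.30 in WT tumour cells. Thbs1 (thrombospondin 1), which can activate latent TGF-beta, was at 2.02 in SCID and 2.11 in WT tumour cells. Ecm1 (extracellular matrix protein 1) was at 1.47 in SCID and 1.58 in WT, and Ctgf, a CCN protein, at 1.21 in SCID and 1.01 in WT. Cyr61, another CCN protein, was at 0.66 in SCID and 0.42 in WT and had the widest difference between hosts in the list, at 0.24.

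Among receptors, Itga5, the partner of Itgb1 in the main fibronectin-binding integrin, was the 1 gene of 7 measured of 11 listed that passed 2-fold, at 1.62 in SCID and 1.53 in WT tumour cells. Itga2b, the platelet integrin subunit, was just short of it at 0.77 in SCID and 0.996 in WT tumour cells, and with values centred on the median gene 2 integrin genes passed in WT tumour cells. Itgb1 itself was at 0.39 in SCID and 0.28 in WT, and Itgav, part of the integrins that bind osteopontin, at 0.32 in SCID and 0.26 in WT. Of 16 measured of 21 sheddases and matrix proteases, 2 were higher by 2-fold in SCID tumour cells and 3 in WT tumour cells, and 0 were lower in either. Mmp19, a metalloproteinase, was at 1.42 in SCID and 2.03 in WT tumour cells, and Mmp13, a collagenase, at 1.08 in SCID and 1.06 in WT. Mmp15, a membrane metalloproteinase, was at 0.76 in SCID and 1.11 in WT tumour cells, or 0.51 in SCID and 0.80 in WT after the GC and length trend was removed. Adam10, which sheds Cd44, was at 0.37 in SCID and 0.35 in WT, and Mmp14, another Cd44 sheddase, at 0.61 in SCID and 0.57 in WT.

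Taking the 64 measured list genes other than the 8, 12 (18.8%) were higher and 1 was lower than the line by 2-fold in SCID tumour cells, with a median of 0.33. In WT tumour cells 14 (21.9%) were higher and 1 was lower, with a median of 0.31. Over all genes 3.65% were higher and 2.62% lower in SCID tumour cells, and 4.12% higher and 2.03% lower in WT tumour cells. The lists were chosen with earlier results of these data known, so these shares are given for scale only. Between hosts 0 were higher, against 0.0168% of all genes, and 1 was lower, Tlr2, against 0.303%, with a list median of 0.02.

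**Figure D5:**
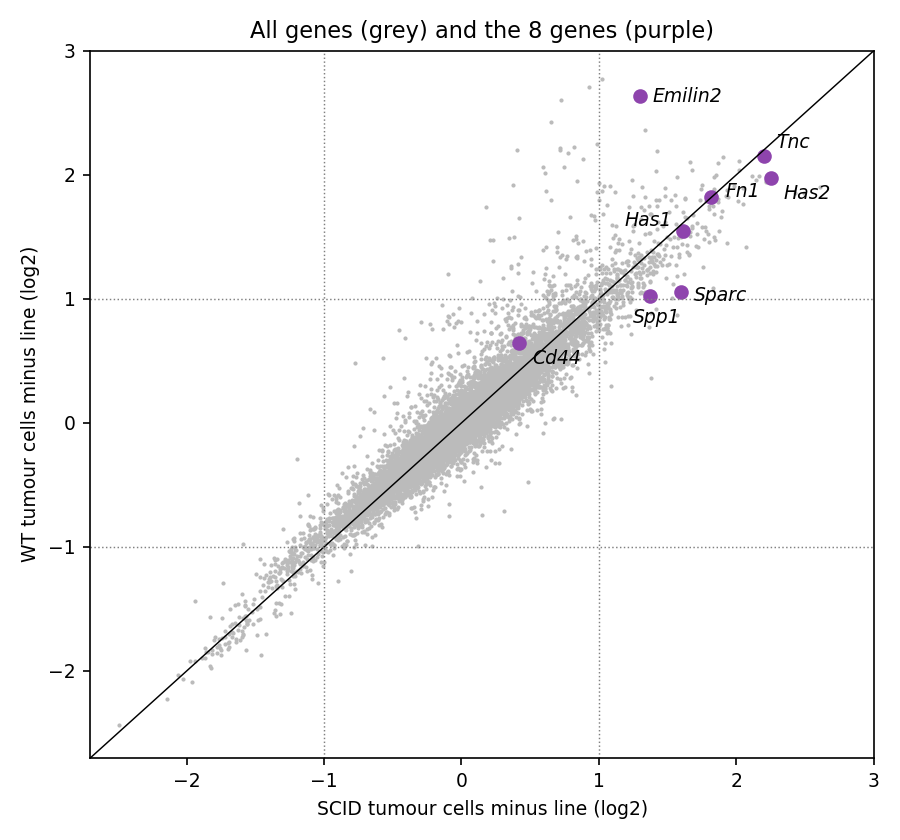
Each of 11886 genes (grey) by its log2 fold change against the cultured line in SCID tumour cells (horizontal) and WT tumour cells (vertical), with the 8 genes in purple, the diagonal of equal change and dotted lines at 2-fold. Tnc, Fn1 and Has1 lie near the diagonal, Has2, Sparc and Spp1 below it, and Emilin2 at 1.30 and 2.64 well above it.

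Genes with the most similar pair of values were found by the distance between genes in the plane of the SCID and WT comparisons, which rests on 3 libraries. The nearest to Has2 was Atf3, a stress-induced transcription factor, at a distance of 0.04, followed by Serpinh1, a collagen chaperone, at 0.05 and Rgs2 at 0.09. The nearest to Has1 were Dbn1 at 0.01, Itga5 at 0.02 and Slit2 at 0.02. Tnc had Rgs2 at 0.17, Stc1 at 0.18 and Thbs1 at 0.19. The nearest to Fn1 were Gdpd5 at 0.01, Zfp532 at 0.04 and Gprc5b at 0.04, to Cd44 Cish at 0.01, Trim14 at 0.02 and Plekho2 at 0.02, and to Spp1 Uts2b at 0.02, Dnajb9 at 0.04 and Gem at 0.05. Sparc had Mcpt8 at 0.08, Adra2a at 0.09 and Mcpt2 at 0.14. Emilin2, which ranked 3 in the WT comparison and so lay at the edge of the plane, had no gene as near. Its nearest were Parp14 at 0.28, Apoe at 0.31 and Cfp (properdin) at 0.38.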

How the data were processed

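The table is the authors' deposited table of log2 fold changes per RefSeq transcript, with 16810 coding (NM) and 1100 other (NR) entries. The header names no log base, and log2 was read because DESeq2 1.20.0, whose fold changes are log2, is named per the submitters' processing notes. These also list BWA, Partek, R 3.5.1 and mm9, with no role or order. How the fold changes were fitted, shrunk or filtered by row is not stated. Values ran from -2.49 to 2.77, and how they scale with read ratios is unknown. Per the labels' protocols, libraries were stranded and poly(A)-selected, and read as pairs of 75 bases. No other gene of the table overlaps the span of any of the 8 genes.

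Coordinates are those of the deposited table with the stop lowered by 1. They were read as GRCm38, although the notes name mm9, since start and end equalled those of RefSeq GRCm38.p6 for Has2, Tnc, Spp1 and Sparc. The spans of the other 4 genes overlapped their RefSeq spans with other ends: Cd44 and Fn1 differed by at most 46 bases, the Emilin2 end by -591 and the Has1 start by 9635 bases. Exons, GC content and length came from GENCODE vM21 (also GRCm38), which covered 16697 transcripts (93.2%). Gene means, counts and distances were computed with Python 3.11.15, numpy 2.4.6 and pandas 2.3.3, and checked on simulated data. The gene lists hold 135 symbols, 71 of them measured. Genes named are the 8, up to 3 genes past 2-fold per list, direction and comparison (the 2 farthest from 0 where none passed) and the 3 nearest genes to each of the 8; any other gene was picked with its value in view. Genes and lists were chosen with earlier results of these data known. The planned scaling, count filter and pseudocount alternatives need counts and were not run.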

Additional observations from a re-analysis of the deposited data

Results flagged for a closer look

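Among the genes and transcripts named by rule, 5 had opposite signs against the line in the 2 hosts, each with 1 library per host, and the difference was not tested. Itgb5, an integrin beta chain, was at -0.49 in SCID and 0.16 in WT tumour cells. Adam8, a metalloproteinase of leukocytes and carcinoma cells, was at -0.26 in SCID and 0.52 in WT tumour cells. Gnpnat1, an enzyme of the hexosamine pathway, was at 0.18 in SCID and -0.05 in WT tumour cells. Gusb, a lysosomal glucuronidase, was at -0.078 in SCID and 0.11 in WT tumour cells. The Cd44 transcript NM_001039150 was at -0.026 in SCID and 0.37 in WT tumour cells. After removal of the GC and length trend Gusb was at 0.01 in SCID and 0.33 in WT tumour cells, and Gnpnat1 at 0.16 and 0.06, each on the same side of 0 in both hosts.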

How the results depend on the processing

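Alternatives were the transcript farthest from 0, the median transcript, thresholds of 1.5-fold and 4-fold, centring on the median gene, coding transcripts and removal of a second-order trend in GC and log10 length. The shares of all genes past 1.5-fold and 4-fold are not given here, so the counts at those thresholds have no background beside them. At 4-fold, 2 of the 8 genes passed in SCID minus the line, 2 in WT minus the line and 0 in SCID minus WT, and of the list genes 3, 5 and 0 passed. At 1.5-fold, 30 list genes passed in SCID minus the line, against 18 higher and 1 lower at 2-fold, and 6 passed in SCID minus WT, against 2. The other 34 of these 42 counts lay within 1.5 times the 2-fold count. The values of the 8 genes moved by less than the pooled SD between transcripts in 117 of 120 cases. Many of these cases could not move, so the count does not measure robustness. All transcripts of the 8 genes are coding, and Has1, Has2, Tnc and Emilin2 have 1 transcript each. Centring removed medians of only -0.015 (SCID minus the line), -0.014 (WT minus the line) and -0.004 (SCID minus WT). Of the 8 genes, Fn1 changed sign, in SCID minus WT, from -0.004 to 0.0002 when centred on the median gene and to 0.04 with the trend removed. The 3 larger moves were all with the farthest transcript: Cd44 at 0.93 in SCID and 1.12 in WT minus the line, and Spp1 at 0.64 in SCID minus WT. The Fn1 difference with and without EDA, whose trend removal was chosen after seeing the data, kept its direction. No paired analysis was possible because each group is 1 library. Depth is unknown, so low genes cannot be told from well measured ones.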
